A study of Mus musculus with 4 samples.

Results

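The 10 genes described here are the cartilage regulators Sox9, Sox5 and Sox6 and the cartilage matrix genes Acan, Col2a1, Col9a1, Col10a1, Hapln1, Matn3 and Cnmd. They were found by gene symbol among the 27040 genes shared by the 4 libraries. In the Prox1 eGFP day 7 library, whose gene list calls Cnmd by its older name Lect1, they were found by gene identifier. Droplet single-cell RNA sequencing was done on mouse Achilles tendon in 4 libraries, 1 per group, each pooled from 5 tendons. The groups were Prox1 eGFP mice at day 0 with no treatment, Prox1 eGFP mice at days 7 and 21 of an injury that the labels abbreviate as B/T, and Vegfc CRE mice at day 7 of the same injury. The strain, the age and the construction of the eGFP and CRE alleles are not given in the sources used here. The labels' protocol describes a flow cytometry sort for Prox1-expressing cells, whereas another label calls all 4 libraries unsorted. Of Prox1 eGFP cells, 96.8% at day 7, 86.7% at day 21 and 8.84% at day 0 had a Prox1 UMI, but only 1.15% of Vegfc CRE cells did. A sort can therefore set the shares of cell types in each library.

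SOX9 is the transcription factor that commits mesenchymal cells to cartilage, and SOX5 and SOX6 are its partners in switching on the genes of cartilage matrix. That matrix is a mesh of type II, IX and XI collagen filled with aggrecan, which link protein ties to hyaluronan. Tendon also makes some of these genes where it is compressed and at its bony insertions, and injured tendon can form cartilage and bone within its substance. SOX9, SOX5 and SOX6 act outside cartilage as well, with SOX6 known in muscle fibre differentiation and SOX9 in hair follicle epithelium.

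All 10 genes are protein-coding in the GENCODE annotation of the files' build, mm10 (GRCm38). The regulators lie at chr11:112782224-112787760 (Sox9, plus strand), chr6:143828425-144781977 (Sox5, minus) and chr7:115470872-116038796 (Sox6, minus). The collagens lie at chr15:97975602-98004695 (Col2a1, minus), chr1:24177610-24252684 (Col9a1, plus) and chr10:34389981-34397085 (Col10a1, plus). Acan lies at chr7:79053483-79115099 (plus), Hapln1 at chr13:89539796-89611652 (plus), Matn3 at chr12:8947929-8972028 (plus) and Cnmd at chr14:79637690-79662170 (minus). Sox5 shares its strand with 2 genes inside it, Gm44068 and Sox5it, and Sox5, Sox6, Col10a1 and Hapln1 have partners on the other strand. Their counts could include reads of those partners, since the counting's use of strand is not given in the sources used here.

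RefSeq promoters of build GRCm38.p6 were matched for 8 of the 10 genes, and none was matched for Sox9 and Col2a1. The 250 bases before the start are shown for 3 matrix genes that were high together in single barcodes at day 21 and for Col10a1, which was high in other barcodes. Read 5′ to 3′ on the gene's strand, they are at chr7:79052976-79053225 (Acan, plus), chr12:8947679-8947928 (Matn3, plus), chr14:79662184-79662433 (Cnmd, minus) and chr10:34389731-34389980 (Col10a1, plus). Capitals mark a SOX core word.
Acan: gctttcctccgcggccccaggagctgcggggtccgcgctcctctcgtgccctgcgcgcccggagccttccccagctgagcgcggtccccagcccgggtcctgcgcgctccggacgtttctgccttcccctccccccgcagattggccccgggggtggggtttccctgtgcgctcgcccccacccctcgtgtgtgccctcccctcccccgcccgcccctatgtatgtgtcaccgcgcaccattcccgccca
Matn3: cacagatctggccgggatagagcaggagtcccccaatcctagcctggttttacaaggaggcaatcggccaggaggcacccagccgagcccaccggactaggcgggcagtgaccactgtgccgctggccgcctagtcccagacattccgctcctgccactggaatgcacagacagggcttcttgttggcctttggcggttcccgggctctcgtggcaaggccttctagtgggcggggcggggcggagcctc
Cnmd: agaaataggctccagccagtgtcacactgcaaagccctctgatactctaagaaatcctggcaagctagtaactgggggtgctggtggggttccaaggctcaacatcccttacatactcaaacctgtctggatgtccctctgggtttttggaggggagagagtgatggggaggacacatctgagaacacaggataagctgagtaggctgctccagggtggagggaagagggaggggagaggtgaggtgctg
Col10a1: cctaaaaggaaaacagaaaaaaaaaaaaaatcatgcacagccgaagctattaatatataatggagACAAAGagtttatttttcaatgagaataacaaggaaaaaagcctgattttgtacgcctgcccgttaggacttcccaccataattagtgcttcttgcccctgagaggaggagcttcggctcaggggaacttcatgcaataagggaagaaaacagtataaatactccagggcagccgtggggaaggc
The words searched were ACAAT and ACAAAG on both strands, which do not overlap one another here. The 3 promoters of Acan, Matn3 and Cnmd held neither word in this window, and that of Col10a1 held ACAAAG once. Hapln1, which was high in the same barcodes as the first 3 and is not shown, held ACAAT once, so the words do not divide the genes by barcode. Of all 32851 promoters of this length, 27.7% held ACAAT, 16.5% held ACAAAG and 38.8% held either. These matches describe letters and do not show binding.

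The libraries held 6761289, 59312181, 59894792 and 92568978 unique molecular identifiers (UMIs, 1 for each captured transcript) for day 0, day 7 and day 21 of Prox1 eGFP and day 7 of Vegfc CRE. Filtered cells numbered 690, 4871, 6303 and 6979, with median UMIs of 7064.5, 8471, 7513 and 8507. Clusters were built with the 10 genes and 44 other cartilage genes left out, so that they did not define the clusters, and were named from marker genes. Muscle progenitor-like cells, which hold the satellite cell marker Pax7, numbered 3618 at Prox1 eGFP day 7 and 3478 at day 21 and only 36 in Vegfc CRE. Stromal cells numbered 2 at day 0, 16 at day 7, 406 at day 21 and 1905 in Vegfc CRE. They formed a fibroblast-like cluster led by Pi16 and Clec3b (290 cells at day 21 and 723 in Vegfc CRE), a fibroblast-like cluster led by Cxcl5 and Gzme (21 and 724) and a tenocyte-like cluster with Tnmd, Scx and Kera (95 and 458). With 1 library per group no test between groups was possible. Intervals in brackets are exact 95% intervals that cover counting error only, and a count of 0 allows up to 3 UMIs or cells.

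In the uninjured library the genes were nearly absent. Sox9 had 5 UMIs in 4 cells, Sox5 had 3 UMIs in 3 cells, and the other 8 genes had none among 690 cells. For each of those 8, this allows a share of up to 0.435% of cells with a UMI, which is not a limit on cells that express the gene. Only 2 stromal and 2 muscle progenitor-like cells were recovered there, so the level in uninjured tendon cells could not be measured.

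Of the 3 regulators, Sox9 was found in the most cells of each library after injury. Sox9 had 5241 UMIs in 1608 cells at Prox1 eGFP day 7, 2778 in 1180 at day 21, whereas Vegfc CRE had 4875 in 1098. Sox5 had 483 UMIs in 397 cells, 309 in 257 and 602 in 414 in the same order. Sox6 had 393 UMIs in 281 cells, 162 in 139 and 194 in 152. Acan, which encodes the core protein of aggrecan, had 42 UMIs in 6 cells at Prox1 eGFP day 7, 832 in 92 at day 21, whereas Vegfc CRE had 8706 in 809, of which 737 were stromal. Col2a1, the chain of type II collagen, had 4 UMIs in 2 cells, 2470 in 32 and 288 in 121. Col2a1 at day 21 thus had far more UMIs in far fewer cells than in Vegfc CRE, where more stromal cells were captured.

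Col9a1, a chain of type IX collagen, had 6 UMIs in 6 cells at Prox1 eGFP day 7, 297 in 14 at day 21, whereas Vegfc CRE had 335 in 185. Matn3, a matrilin that links collagen fibrils, had 2 UMIs in 2 cells, 355 in 23 and 269 in 179. Hapln1, the link protein, had 67 UMIs in 31 cells, 405 in 39 and 113 in 56. Cnmd, the cartilage protein chondromodulin, had none at day 7, 279 UMIs in 6 cells at day 21 and 114 in 45 cells in Vegfc CRE. Col10a1, the collagen of hypertrophic cartilage, had 1 UMI, 151 UMIs in 5 cells and 4 UMIs in 2 cells. Thus 9 of the 10 genes had a UMI at Prox1 eGFP day 7 and all 10 at day 21 and in Vegfc CRE.

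**Figure D1:**
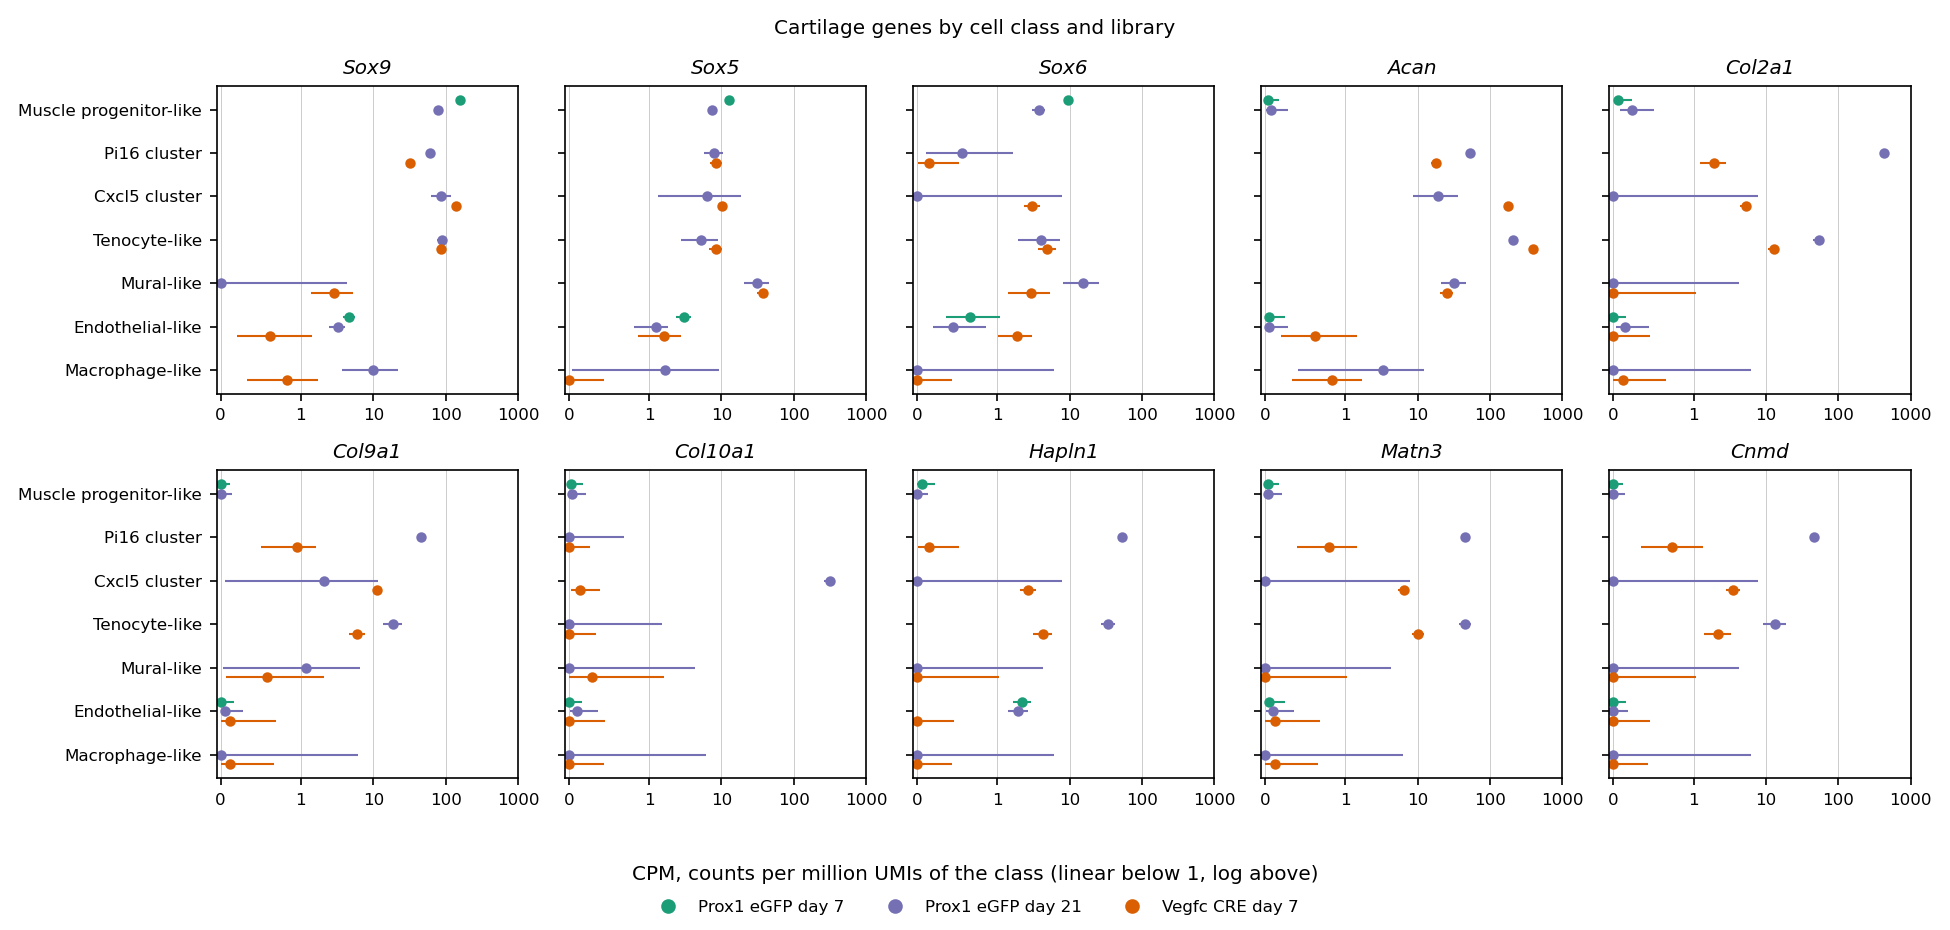
Level in CPM (UMIs of the gene per 1000000 UMIs of the class) on an axis that is linear below 1 and logarithmic above, for each gene, with exact 95% Poisson intervals and colours for the library. Sox9 lies high in muscle progenitor-like and stromal cells, whereas Acan lies above 100 only in tenocyte-like cells and in the Cxcl5 cluster of Vegfc CRE among the classes plotted.

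The muscle progenitor-like cells held the regulators without the matrix genes. Levels are given as CPM, the UMIs of a gene per 1000000 UMIs of the class. Sox9 had 158 CPM (153 to 162) at day 7 and 77.8 (74.4 to 81.3) at day 21, with a UMI in 42.1% and 27.5% of cells. Sox5 had 12.9 (11.7 to 14.2) and 7.50 (6.47 to 8.64) CPM, and Sox6 had 9.57 (8.52 to 10.7) and 3.75 (3.04 to 4.58). All 3 were lower in the day 21 library, and the intervals of the 2 days did not overlap for any of them. At 5000 UMIs per cell, Sox9 was found in 34.3% and 21.4% of these cells, against 1.83% and 1.28% of the endothelial-like cells of the same libraries. At least 1 of the 10 genes was found in 50.4% of these cells at day 7 and 33.1% at day 21. Any of the 7 matrix genes was found in only 6 of 3618 cells (0.166%) and 10 of 3478 (0.287%). Col9a1 and Cnmd had no UMI in these cells in either library.

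Day 21 over day 7, the ratio for Sox9 was 0.493 (0.468 to 0.520), followed by 0.581 (0.487 to 0.692) for Sox5 and 0.392 (0.308 to 0.495) for Sox6. Of the 3 members with at least 10 UMIs over both libraries, 2 were at least 2-fold lower at day 21, where 11.3% of 14079 genes were. The median gene was itself lower by 0.23 on the log2 scale. Scaling by trimmed mean factors (TMM) moved every gene up by 0.218 (log2). Sox9 then stood at -0.80 and left the 2-fold class, and Sox6 stood at -1.13 and stayed in it. Pax7 and Prox1 were also lower at day 21, with ratios of 0.549 (0.535 to 0.562) and 0.623 (0.612 to 0.633). Their part in the difference was not tested.

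The difference in Sox9 was not the same in every cluster. Cluster 1, led by Gal and Calcr, held 75.8% of the muscle progenitor-like cells at day 7 and 15.8% at day 21, and cluster 0, led by P2ry14 and Chrdl2, held 17.7% and 77.5%. Within cluster 0 Sox9 had 75.7 (68.1 to 83.9) and 72.9 (69.1 to 77.0) CPM, a ratio of 0.964 (0.857 to 1.08). Within cluster 1 it had 179 (174 to 185) and 115 (105 to 126), a ratio of 0.641 (0.581 to 0.707). Within the cluster led by Myog and Mymk it had 140 (129 to 152) and 54.6 (44.0 to 66.9), a ratio of 0.390 (0.310 to 0.487), and 2 of 3 members there, Sox9 and Sox5, were at least 2-fold lower against 22.2% of genes. In a small cluster led by genes of dividing cells, with 20 and 113 cells, the ratio was 0.659 (0.454 to 0.977). The interval held 1 in cluster 0 and lay below 1 in the other 3, while the shares of the clusters also changed. Sox5 was lower in both clusters, with ratios of 0.533 (0.402 to 0.713) in cluster 0 and 0.537 (0.356 to 0.782) in cluster 1. Sox6 was lower in both as well, with ratios of 0.423 (0.258 to 0.704) and 0.344 (0.169 to 0.631). It was the 1 of 3 members at least 2-fold lower within each cluster, against 6.7% of genes in cluster 0 and 8.83% in cluster 1.

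Sox6 set itself apart from Sox9 and Sox5 in the cluster led by Myog and Mymk, genes of differentiating and fusing myoblasts. Sox6 had 22.3 (17.9 to 27.5) CPM there at day 7 and 22.3 (15.8 to 30.6) at day 21. In the other muscle progenitor-like cells it had 7.74 and 2.43, so the Myog cluster was 2.88-fold (2.22 to 3.71) and 9.19-fold (5.94 to 14.1) higher. Sox5 went the other way, at 0.286 (0.162 to 0.471) and 0.148 (0.0178 to 0.541) of the other cells. Sox9 was at 0.873 (0.798 to 0.954) and 0.687 (0.552 to 0.846). Sox6 was 1 of 3 members at least 2-fold higher on both days, against 11.0% and 12.0% of all genes, and Sox5 1 of 3 at least 2-fold lower, against 10.2% and 16.0%. Sox6 was also found in mature muscle-like cells, at 24.5 (19.1 to 31.0) CPM at day 7 and 29.8 (19.7 to 43.4) at day 21. Sox9 was at 2.80 and 13.2 CPM there.

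**Figure D2:**
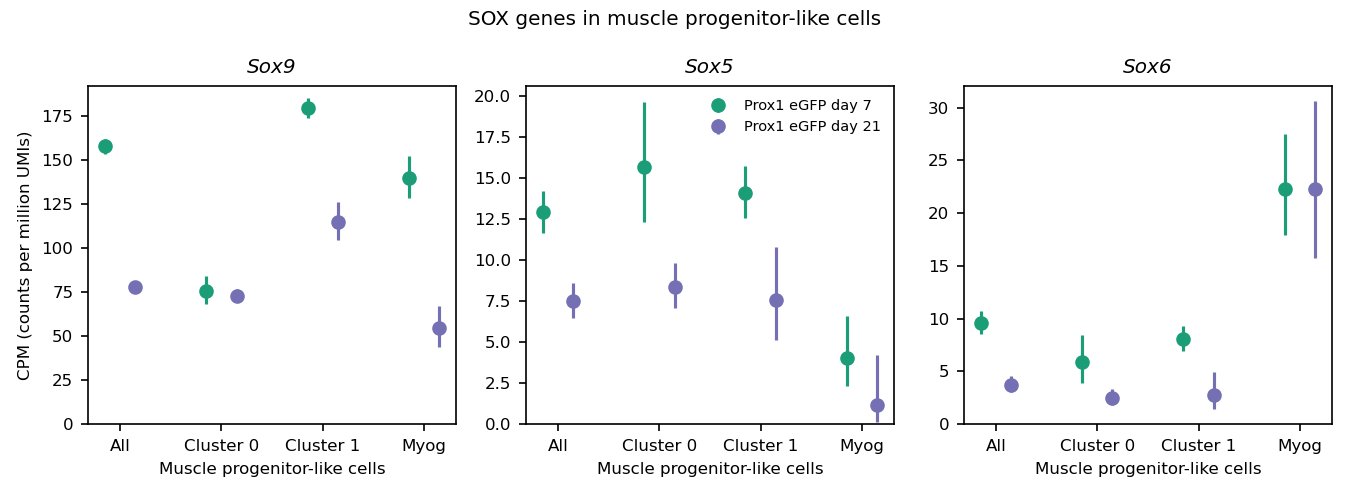
Level in CPM of Sox9, Sox5 and Sox6 (linear axes from 0, different for each gene) in all muscle progenitor-like cells and in 3 of their clusters, at Prox1 eGFP days 7 and 21, with exact 95% Poisson intervals. Sox9 is alike on both days in cluster 0, and Sox6 is highest in the Myog cluster at 22.3 on both days.

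No gathering of Sox9 with Sox5 or Sox6 in muscle progenitor-like cells was detectable at this depth. With each cell thinned to 2000 UMIs, Sox5 was found in 1.88% (1.00 to 3.19) of the 692 cells with a Sox9 UMI at day 7 and in 2.73% (2.17 to 3.39) of those without. Sox6 was found in 2.31% (1.33 to 3.73) and 1.76% (1.31 to 2.31). At day 21, Sox5 was found in 1.25% of the 400 cells with Sox9 and 1.65% of the others, and Sox6 in 2 of 400 and 19 of 3022. All these intervals overlapped. Sox5 was found in 5 of the 67 Sox6 cells at day 7, or 7.46% (2.47 to 16.6), and in 2.47% (1.99 to 3.04) of the others, and at day 21 in 0 of 21 and 55 of 3401. The shares of cells with Pax7 had overlapping intervals with and without Sox9, at 69.7% (66.1 to 73.1) and 67.7% (65.99 to 69.4) at day 7 and 52.3% (47.2 to 57.2) and 48.6% (46.8 to 50.4) at day 21. As a ratio of levels with over without Sox9, Pax7 was at 1.05 (0.976 to 1.125) at day 7 and 1.18 (1.05 to 1.32) at day 21. Myod1, another marker of these cells, was at 0.987 (0.824 to 1.18) and 1.51 (1.27 to 1.79). Myog was found in 0.723% (0.235 to 1.68) of the Sox9 cells and 1.90% (1.43 to 2.47) of the others at day 7. With Sox6 the order was opposite, since Myog was found in 10.4% (4.31 to 20.4) of the 67 Sox6 cells and 1.51% (1.13 to 1.97) of the others.

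Few genes stood apart in muscle progenitor-like cells with a Sox9 UMI. Genes were compared at 2000 UMIs per cell if they had at least 30 UMIs in the Sox9 cells, a filter on those cells alone. Of these, 0.0376% at day 7 and 0.184% at day 21 were at least 2-fold higher with Sox9. Among the 3212 genes that passed on both days, Adamts4, an enzyme that cleaves aggrecan, ranked first by the smaller of its 2 ratios. It was at 1.62-fold (1.27 to 2.05) and 1.67-fold (1.08 to 2.49). These intervals do not allow for the choice among 3212 genes. Acan itself had 1 UMI and 2 UMIs in this class on the 2 days.

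Of the 44 other cartilage genes, 22 had at least 10 UMIs over both days in muscle progenitor-like cells. Of these, 5 were at least 2-fold lower at day 21 and 2 higher, against 11.3% and 4.51% of all genes, with a median of -0.72 on the log2 scale beside -0.23 for all genes. Matn4, a matrilin, was lower at 3.12 against 15.4 CPM, a ratio of 0.203 (0.158 to 0.257), and the receptor gene Fgfr3 was at 0.378 (0.180 to 0.737). Col11a1 was higher on 17 against 2 UMIs, a ratio of 10.4 (2.48 to 93.2), and Alpl, the alkaline phosphatase of mineralising cells, at 4.32 (3.61 to 5.20). Under TMM scaling 3 of the 22 were lower.

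Among the stromal cells of Vegfc CRE day 7, the 3 clusters held the genes at unlike levels. Acan had 394 CPM (382 to 405) in tenocyte-like cells, 178 (173 to 184) in the Cxcl5 cluster and 17.6 (15.5 to 19.98) in the Pi16 cluster. It was found in 305 of 458, 374 of 724 and 58 of 723 cells of the 3 clusters. Sox9 was in another order, at 138 (133 to 143) in the Cxcl5 cluster, 87.4 (82.0 to 93.1) in tenocyte-like cells and 32.3 (29.3 to 35.4) in the Pi16 cluster. In macrophage-like cells, where both genes should be missing, Acan had 0.831 and Sox9 0.831 CPM on 7 UMIs each. At 5000 UMIs per cell, 0.513% of macrophage-like cells had Acan and 0.256% had Sox9, against 52.3% and 25.0% of tenocyte-like cells. Median depth before thinning was 8383.5 UMIs in macrophage-like and 24761.5 in tenocyte-like cells.

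The Cxcl5 cluster stood above the Pi16 cluster for 8 of the 9 members with at least 10 UMIs, where 11.0% of 14372 genes were at least 2-fold higher. The ratio was 10.1 (8.89 to 11.6) for Acan, 11.7 (6.74 to 22.4) for Col9a1, 7.95 (4.31 to 16.3) for Matn3 and 4.28 (3.87 to 4.74) for Sox9. It was 4.86 (2.51 to 10.5) for Cnmd and 2.77 (1.80 to 4.42) for Col2a1. Sox6 and Hapln1 were at 20.9 (5.58 to 176) and 18.5 (4.90 to 156), each on 2 UMIs in the Pi16 cluster. Sox5 was the exception, at 1.22 (0.967 to 1.53). Median depth was 29738.5 UMIs in the Cxcl5 and 18952 in the Pi16 cluster, and its part was not tested.

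Tenocyte-like cells stood above the Pi16 cluster for the same 8 members, where 7.12% of genes were at least 2-fold higher. The ratio was 22.3 (19.6 to 25.5) for Acan, 12.5 (6.74 to 25.9) for Matn3, 6.80 (4.45 to 10.8) for Col2a1, 6.27 (3.42 to 12.4) for Col9a1 and 2.71 (2.42 to 3.04) for Sox9. Hapln1 was at 29.5 (7.71 to 250.4), Sox6 at 33.9 (8.93 to 287) and Cnmd at 3.01 (1.39 to 7.05). Sox5 was again alike, at 0.992 (0.745 to 1.32). Between tenocyte-like cells and the Cxcl5 cluster the differences were smaller, and 2 of 9 members were at least 2-fold higher in tenocyte-like cells against 6.35% of genes. These were Acan at 2.21 (2.11 to 2.31) and Col2a1 at 2.45 (1.91 to 3.16). None was at least 2-fold lower, against 9.45% of genes. Sox9 and Col9a1 were lower by less than that in tenocyte-like cells, at 0.633 (0.589 to 0.681) and 0.534 (0.400 to 0.704).

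These levels rest on how the stromal cells were split. Against the 2 fibroblast-like clusters together, 5 of 9 members were at least 2-fold higher in tenocyte-like cells, against 4.51% of genes, with Acan at 1.75 and Sox9 at -0.16 on the log2 scale. Other clusterings put 74 to 1185 of the Vegfc CRE cells in the tenocyte-like class. Acan then lay between -1.48 and 3.83 and Sox9 between -6.62 and 1.92. The lowest value of each came from 74 cells, in a clustering that kept the cartilage genes. There another cluster, of 593 cells over all libraries, matched the tenocyte markers best but was left unnamed. Its cells therefore entered neither class. When tenocyte-like cells were instead taken as stromal cells with a Tnmd or Scx UMI, 899 cells, Acan stood at 2.84 and Sox9 at 0.80.

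The other cartilage genes differed between the same clusters. In the Cxcl5 cluster 19 of 36 were at least 2-fold higher than in the Pi16 cluster and 5 lower, against 11.0% and 10.8% of all genes, with a median of 1.06 on the log2 scale beside 0.07 for all genes. Gdf5, a joint and tendon growth factor, and Ibsp, a bone matrix protein, were at least 16.2-fold and 9.85-fold higher, each against 0 UMIs counted as 3. Col9a3, a partner chain of Col9a1, was at 9.73 (5.15 to 20.7) and Mia at 8.003 (1.20 to 340.1), on 13 against 1 UMI. In tenocyte-like cells 18 of 34 were higher than in the Pi16 cluster and 1 lower, against 7.12% and 11.2% of all genes. The largest were Ucma at 40.8 (21.2 to 90.2), Mia at 38.9 (6.48 to 1584), Col11a2 at 31.2 (18.7 to 56.3) and Cilp2 at 22.6 (15.4 to 34.7). Scx, a transcription factor of tendon, was 5.55-fold (4.56 to 6.80) higher in the Cxcl5 than in the Pi16 cluster, and Tnmd was at 1.02 (0.955 to 1.10).

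Sox9 was found more often in stromal cells that also held Acan. At 5000 UMIs per cell in Vegfc CRE, Sox9 was found in 43.4% (39.1 to 47.8) of the 518 cells with an Acan UMI and in 19.1% (17.0 to 21.3) of the 1311 without. The Cxcl5 cluster gave 55.4% (49.2 to 61.5) and 31.5% (27.1 to 36.1), and tenocyte-like cells 31.3% (25.4 to 37.7) and 18.1% (13.1 to 24.0). In the Pi16 cluster, Sox9 was found in 23.8% (8.22 to 47.2) of only 21 Acan cells and 11.6% (9.24 to 14.2) of the others. The share was higher with Acan in all 3 clusters, and the intervals were apart in the Cxcl5 cluster and in tenocyte-like cells. At Prox1 eGFP day 21, Sox9 was found in 28.9% (16.4 to 44.3) of 45 Acan cells and 15.6% (11.9 to 19.97) of 333 others, and these intervals overlapped. Without thinning the shares were 75.4% and 38.1% in Vegfc CRE and 63.1% and 27.9% at day 21.

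The other matrix genes also lay mostly in Acan cells of Vegfc CRE. At 5000 UMIs per cell, Col2a1 was found in 6.56% (4.59 to 9.05) of stromal cells with Acan and 0.610% (0.264 to 1.20) of those without. Col9a1 was found in 6.37% (4.42 to 8.83) and 0.915% (0.474 to 1.59), Matn3 in 4.63% (2.99 to 6.82) and 1.22% (0.699 to 1.97) and Hapln1 in 2.70% (1.49 to 4.49) and 0.229% (0.0472 to 0.667). Cnmd was found in 2.12% (1.06 to 3.77) and 0.381% (0.124 to 0.888). All 5 pairs of intervals were apart. Seen from the other side and without thinning, Acan was found in 102 of 117 Col2a1 cells, 160 of 178 Col9a1 cells, 139 of 173 Matn3 cells, 49 of 52 Hapln1 cells and 37 of 44 Cnmd cells. Sox6 was found in 2.70% (1.49 to 4.49) with Acan and 0.763% (0.366 to 1.40) without, and Sox5 in 5.60% (3.78 to 7.94) and 3.97% (2.98 to 5.17).

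In Vegfc CRE at 5000 UMIs per cell, the Acan cells also held Scx and Tnmd more often. Scx was found in 41.9% (37.6 to 46.3) of stromal cells with Acan and 10.5% (8.92 to 12.3) of those without, and Tnmd, the tendon membrane protein tenomodulin, in 43.2% (38.9 to 47.6) and 21.3% (19.1 to 23.6). Mkx, another transcription factor of tendon, had overlapping intervals, at 4.44% (2.84 to 6.59) and 3.66% (2.71 to 4.83). At day 21 Scx was found in 35.6% (21.9 to 51.2) of Acan cells and 15.3% (11.6 to 19.6) of the others, but the interval for the ratio of its levels in CPM held 1, at 1.19 (0.814 to 1.68). Pdgfra, a receptor of fibroblasts, went the other way in Vegfc CRE, at 35.5% (31.4 to 39.8) and 55.1% (52.3 to 57.8). Within the Cxcl5 cluster Scx was found in 22.8% (18.0 to 28.4) with Acan and 5.40% (3.45 to 7.99) without. For Sox9 cells of Vegfc CRE no such difference was detectable with the 3 clusters pooled. The clusters held Sox9, Acan and Scx at unlike levels. The part of this make-up in the pooled shares, here and for the other matrix genes, was not tested. Scx was found in 95 of 475 stromal cells with Sox9 and 260 of 1354 without, or 19.2% (17.1 to 21.4) of the latter, and Tnmd in 26.9% (23.0 to 31.2) and 27.7% (25.3 to 30.2).

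**Figure D3:**
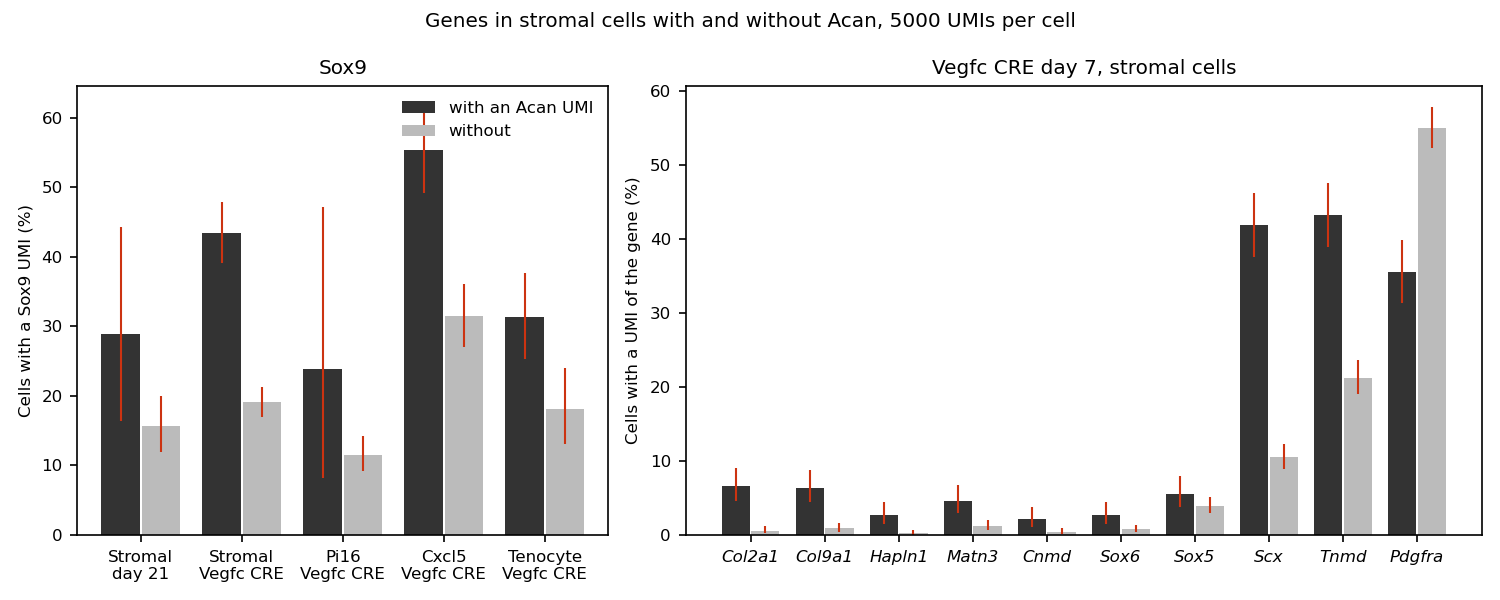
Percent of stromal cells with a UMI of Sox9 (left, by cell group) or of 10 other genes (right, Vegfc CRE day 7) among cells with an Acan UMI (dark bars) and without one (light bars), at 5000 UMIs per cell, with exact 95% intervals. The dark bar is the higher for Sox9 in each group plotted and for all genes on the right except Pdgfra.

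Most stromal cells of Vegfc CRE held at most 1 matrix gene. Without thinning, 42.4% of the 1905 cells held at least 1, 17.6% at least 2, 5.98% at least 3 and 1.57% at least 4. At Prox1 eGFP day 21 the shares of the 406 cells were 28.3%, 6.90%, 1.97% and 0.739%. At 5000 UMIs per cell, at least 2 matrix genes were found in 5.47% of 1829 Vegfc CRE cells and 2.12% of 378 day 21 cells. By cluster in Vegfc CRE, at 5000 UMIs, at least 2 were found in 9.55% of tenocyte-like cells, 7.94% of the Cxcl5 cluster and 0.431% of the Pi16 cluster. The highest single cells of Vegfc CRE held 6 of the 7 matrix genes, as in a Cxcl5 cluster cell with 13 Acan, 11 Col9a1, 6 Col2a1, 5 Matn3, 4 Hapln1 and 4 Cnmd UMIs and 3 of Sox9. Col10a1 was missing from that cell.

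At Prox1 eGFP day 21 a single barcode set the level of most matrix genes. It fell in the Pi16 cluster, had 46617 UMIs, and held 3520 of the library's 4789 matrix gene UMIs, or 73.5%. Its counts were 2324 for Col2a1, 278 for Hapln1, 244 for Cnmd, 243 for Col9a1, 237 for Matn3, 194 for Acan and 0 for Col10a1. It also held 26 UMIs of Sox9, 5 of Sox5 and 2 of Sox6, so 9 of the 10 genes were present. Of the 44 other cartilage genes it held 35, where the median stromal cell of the library held 8. These included 793 UMIs of Col11a1, 613 of Snorc and 378 of Col9a3. It held 29 UMIs of Col1a1 and 0 of Pdgfra, which are both among the markers that named the cluster it fell in. Its UMIs of Scx and Tnmd were also 0, as were those of Pecam1 and Ptprc, markers of endothelial and blood cells.

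A second barcode of the same library held tendon and cartilage genes together. It was tenocyte-like, had 49880 UMIs, and held 89 UMIs of Col2a1, 81 of Acan, 75 each of Hapln1 and Matn3, 42 of Col9a1, 31 of Cnmd and 12 of Sox9. It also held 76 UMIs of Tnmd, 8 of Scx and 715 of Col1a1. The doublet scores of the 2 barcodes stood at the 84.0 and 79.2 percentiles of their library. Col10a1 lay elsewhere. Of its 151 UMIs, 93 and 55 were in 2 cells of the Cxcl5 cluster, which held no other matrix gene. One of them held 847 UMIs of Spp1 and 2 of Mmp13, and the other held 40 and 13. Neither held a UMI of Ibsp, Alpl, Phospho1, Bglap, Sp7 or Dmp1, which are other genes of hypertrophic cartilage or bone. Their doublet scores stood at the 92.4 and 85.5 percentiles. Spp1 and Mmp13 are made by hypertrophic cartilage and by bone cells, and also by other cells.

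**Figure D4:**
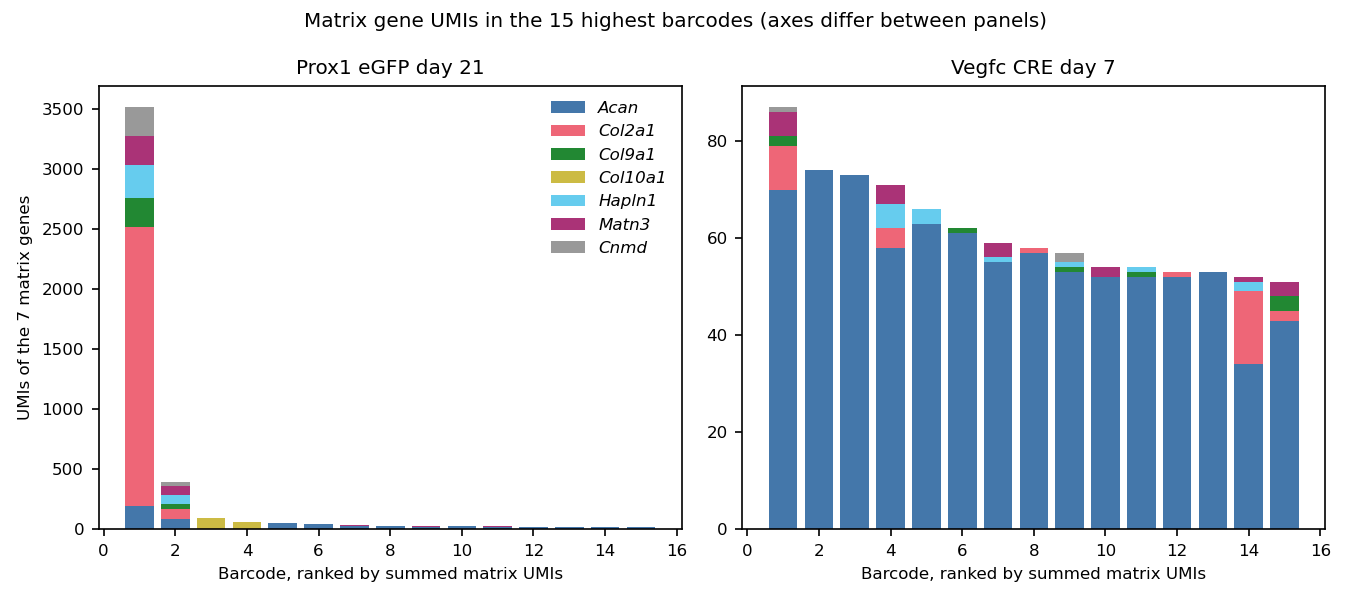
UMIs of the 7 matrix genes in the 15 barcodes with the most of them, ranked, at Prox1 eGFP day 21 and Vegfc CRE day 7, stacked by gene, on linear axes that differ between the panels. At day 21 the first barcode has 3520 UMIs and the second 393, whereas in Vegfc CRE the first has 87 and Acan makes up most of each bar.

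The share of a gene's UMIs in its 2 highest barcodes shows how far this reached. At day 21 it was 97.7% for Col2a1, 96.0% for Col9a1, 98.0% for Col10a1, 98.6% for Cnmd, 87.9% for Matn3 and 87.2% for Hapln1. It was 33.1% for Acan and 2.34% for Sox9. In Vegfc CRE it was 10.8% for Col2a1, 6.27% for Col9a1, 27.2% for Cnmd, 5.95% for Matn3, 10.6% for Hapln1, 1.69% for Acan and 1.81% for Sox9. Of the 7 matrix genes, 6 were thus spread over more cells in Vegfc CRE, and at day 21 all but Acan had most of their UMIs in 2 barcodes. Vegfc CRE also had more stromal cells, 1905 against 406, at a median of 23572 against 19202.5 UMIs. The part of this in the number of cells holding a gene was not tested. Col10a1 was the exception in Vegfc CRE, where its 4 UMIs lay in 2 cells.

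The ratio of Vegfc CRE day 7 to Prox1 eGFP day 21 in stromal cells therefore depended on those barcodes. The 2 libraries differ in genotype, in day and perhaps in the sort, and these cannot be told apart. With all cells, 6 of 10 members were at least 2-fold lower in Vegfc CRE, where 8.67% of 15060 genes were. None was at least 2-fold higher, against 8.78% of genes. Col2a1 had 6.04 CPM (5.36 to 6.79) against 296 (285 to 308). Without the 2 barcodes of each library with the most matrix UMIs, 4 members were at least 2-fold higher, against 8.99% of genes, and 1 lower, against 8.42%. The 1 lower was Col10a1, on 3 against 148 UMIs. The barcodes were chosen by the matrix genes themselves, so the ratios without them are no separate support for a difference.

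Without them Col2a1 was alike in the 2 libraries, at 1.09 (0.793 to 1.54) with 5.86 and 5.37 CPM. Matn3 was at 1.13 (0.806 to 1.61) and Hapln1 at 1.47 (0.822 to 2.84), and these intervals also held 1. Acan was higher in Vegfc CRE with the barcodes at 1.88 (1.75 to 2.03) and without them at 2.79 (2.56 to 3.06). Col9a1 turned from 0.196 to 6.29 (3.27 to 13.9) and Cnmd from 0.0715 to 4.89 (1.86 to 18.3), the latter against 4 UMIs. The barcodes left out weighed far more on day 21. There they held 285 of the 297 UMIs of Col9a1 and 275 of the 279 of Cnmd. In Vegfc CRE 1 of them held 2 UMIs of Col9a1 and 1 of Cnmd, and the other held neither gene. The make-up of the stromal cells differed, since 724 of 1905 in Vegfc CRE but 21 of 406 at day 21 were of the Cxcl5 cluster. Within the Pi16 cluster and without the barcodes, Col9a1 was at 1.25 (0.387 to 5.28) and Cnmd at 1.93 (0.411 to 18.1). Sox9 was at 1.35 (1.24 to 1.47) with and 1.42 (1.30 to 1.55) without. Sox5 was at 1.58 (1.17 to 2.17) and Sox6 at 2.41 (1.23 to 5.39) without.

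Within tenocyte-like cells, with the barcodes kept, 5 of 9 members were at least 2-fold lower in Vegfc CRE (Col2a1, Col9a1, Hapln1, Matn3 and Cnmd), against 8.34% of genes, and none was higher by as much, against 8.76%. Without those barcodes, 4 of 9 members were at least 2-fold higher in Vegfc CRE, against 8.58% of genes, and none was lower by as much, against 8.39%. Acan was 2.19-fold (1.98 to 2.42) higher in Vegfc CRE, and Sox9 was at 1.02 (0.877 to 1.19). Col2a1 and Matn3 were lower, at 0.667 (0.471 to 0.960) and 0.614 (0.420 to 0.915). In the Pi16 cluster with the barcodes kept, 6 of 8 members were at least 2-fold lower in Vegfc CRE, all of them matrix genes, against 5.16% of genes, and none was higher by as much, against 6.59%. Without them 2 of 7 members, Col2a1 and Matn3, were at least 2-fold higher on 26 against 0 and 11 against 2 UMIs, where 6.72% of genes were, and none was lower by as much, against 4.83%. Sox9 there was at 0.568 (0.489 to 0.659) and Acan at 1.10 (0.8544 to 1.42). At day 21 the tenocyte-like cells still held the remaining Col2a1. Among stromal cells, its 44 UMIs outside the first 2 barcodes all lay in tenocyte-like cells, and no other Pi16 or Cxcl5 cluster cell held one.

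The comparison of tenocyte-like with fibroblast-like cells at day 21 also turned on the 2 barcodes. With all cells, Col2a1 was lower in tenocyte-like cells at 0.135 (0.112 to 0.160), as were Col9a1 at 0.436 (0.311 to 0.599) and Cnmd at 0.315 (0.212 to 0.455). Of the 10 members, 4 were at least 2-fold lower there (these 3 and Col10a1), against 11.5% of genes, and 2 higher (Sox6 and Acan), against 5.56%. Without the 2 barcodes Col2a1 was instead at least 34.9-fold higher in tenocyte-like cells, with 0 UMIs counted as 3. Of 7 members, 4 were then at least 2-fold higher, against 5.67% of genes, and 2, Sox5 and Col10a1, lower, against 11.4%. Acan was 10.9-fold (8.71 to 13.8) higher and Matn3 45.2-fold (11.7 to 387), on 38 against 2 UMIs.

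In these day 21 tenocyte-like cells no gathering of Acan with Col2a1 was detectable. Without thinning, Acan was found in 7 of the 20 cells with Col2a1, or 35.0% (15.4 to 59.2), and in 42 of 75 without, or 56.0% (44.1 to 67.4). Matn3 was found in 4 of the 20 cells with Col2a1 (interval 5.73% to 43.7%) and in 13 of 75 without, or 17.3% (9.57 to 27.8). Both pairs of intervals overlapped at these few cells.

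Of the 44 other cartilage genes, 37 had at least 10 UMIs in the stromal cells of the 2 libraries. With all cells 7 were at least 2-fold higher in Vegfc CRE and 13 lower, against 8.78% and 8.67% of all genes. Without the 2 highest barcodes 11 were higher and 4 lower, against 8.99% and 8.42%. Snorc, a cartilage membrane proteoglycan, had 25 UMIs in Vegfc CRE against 615 at day 21, of which 613 were in the first barcode. Without the barcodes Chad, a matrix protein of cartilage and tendon, was lower in Vegfc CRE at 0.0958 (0.0824 to 0.111) and Cilp2 at 0.161 (0.143 to 0.182). Scrg1 and Gdf5 were at least 7.22-fold and 5.36-fold higher, each against 0 UMIs counted as 3.

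Few stromal cells were captured at Prox1 eGFP day 7. Among the 16 cells Sox9 was found in 9 and Acan in 4. Acan had 54.7 CPM (39.1 to 74.4) on 40 UMIs and Hapln1 20.5 (11.5 to 33.8) on 15 UMIs in 2 cells. One tenocyte-like cell of 115964 UMIs held 26 of the library's 42 Acan UMIs, with 133 UMIs of Scx and 117 of Tnmd and none of the other matrix genes. That cell also held 18 UMIs of Prox1, 2 of Pax7 and, of the endothelial markers Cdh5 and Pecam1, 10 and 5. Its doublet score stood at the 68.1 percentile, and whether it was a mixture was not tested. Another held 11 UMIs of Hapln1 and 2 of Col2a1. The remaining Hapln1 signal of that library was mostly endothelial.

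Other cell classes held some of the genes. Without thinning, at least 2 of the 10 were found in 16 of 230 mural-like, 13 of 109 keratinocyte-like and 8 of 60 Schwann-like cells of Vegfc CRE. Hapln1 was found in 27 endothelial-like cells at Prox1 eGFP day 7, at 2.19 CPM (1.63 to 2.89), and in 25 at day 21, at 1.96 (1.39 to 2.68). None of the 685 in Vegfc CRE held it. The make-up of the class differed. Endothelial-like clusters with Clca3a1 and with Lyve1 among their leading genes held 503 and 387 cells at day 7 and 923 and 948 at day 21. In Vegfc CRE they held 5 and 3, and 500 cells were in a cluster with Vwf among its leading genes. The part of this make-up was not tested. Among classes of at least 50 cells Sox5 had its highest level in mural-like cells, the pericytes and smooth muscle of vessels, at 37.3 CPM (31.2 to 44.4) in Vegfc CRE and 31.4 (20.7 to 45.7) at day 21. Acan was found in 26 of 230 mural-like cells of Vegfc CRE and 4 of 80 at day 21. At 5000 UMIs, none of the 40 Sox5 mural-like cells of Vegfc CRE held Acan, and 14 of the 172 others did. Sox6 had 60.9 (38.6 to 91.3) CPM in the 60 Schwann-like cells of Vegfc CRE.

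Sox9 was also high in keratinocyte-like cells, a cluster led by Krt1 and Krt14 among others. It had 153 CPM (138 to 170.2) in 109 cells of Vegfc CRE and 289 (232 to 356) in 19 cells of day 21. Among groups of at least 50 cells in Vegfc CRE, the order of Sox9 was keratinocyte-like, Cxcl5 cluster, tenocyte-like and then Pi16 cluster. The first 2 had overlapping intervals. The 36 muscle progenitor-like cells there, too few for this order, had 8 UMIs of Sox9. For Acan the order was tenocyte-like, Cxcl5 cluster, Schwann-like at 29.1 (14.5 to 52.1) in 2 of 60 cells, mural-like at 25.2 (20.2 to 31.1), Pi16 cluster and keratinocyte-like at 14.1 (9.61 to 19.8). The Schwann-like and mural-like intervals overlapped, as did those of the Pi16 cluster and keratinocyte-like cells. One keratinocyte-like cell of 74262 UMIs and a doublet score at the 96.6 percentile held 9 of the 10 genes at 1 to 6 UMIs each.

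Other genes were ranked by how like their pattern was to Acan and Sox9, as the Pearson r of log2 of CPM plus 1 over 27 groups of at least 30 cells, 1 for each class and library. The groups of 1 library share their preparation. For Acan the highest were Itga11 (r = 0.969), a collagen-binding integrin, P4ha3 (0.963), a collagen prolyl hydroxylase, Prss35 (0.946), Col16a1 (0.946) and Lrrc15 (0.945). For Sox9 they were Sbsn (0.906), an epidermal gene, Arhgef19 (0.875), Egfr (0.868), Gxylt2 (0.857) and Tmem30b (0.851). Acan and Sox9 themselves had an r of 0.499, and among the 10 genes the closest to Acan was Col9a1 (0.814). The groups kept the first day 21 barcode. Of the fibroblast-like UMIs at day 21, it held 243 of 248 for Col9a1 and 194 of 288 for Acan. Its part in r was not tested.

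Among stromal cells at 5000 UMIs, the genes with the highest ratio in Acan cells in both libraries included other cartilage genes. Genes entered by at least 30 UMIs in the Acan cells alone, and 1092 did so in both libraries. Of the genes entered in each library, 2.25% in Vegfc CRE and 4.75% at day 21 were at least 2-fold higher with Acan. The intervals below do not allow for the choice of the highest genes. Col9a3 was at 23.4 (8.41 to 90.4) in Vegfc CRE and Ucma at 9.98 (5.89 to 17.8). C1qtnf3, a secreted protein known as cartducin in cartilage, was at 6.53 (6.10 to 6.98) in Vegfc CRE and 6.35 (5.33 to 7.57) at day 21. Tnn, tenascin W, was at 5.44 (4.90 to 6.04) and 5.06 (3.51 to 7.24), and Slpi at 3.53 (3.28 to 3.795) and 12.4 (8.66 to 18.0). At day 21 Col9a3 and Ucma entered on 39 and 38 UMIs. Before thinning, the first barcode held 378 of the 471 stromal UMIs of Col9a3, and the second held 79. Of Ucma they held 174 and 125 UMIs. The day 21 ratios of Col9a3, Ucma and Col2a1 are therefore not given, and their rank is no separate support from that library.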

How the data were processed

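The authors' deposited matrices held raw UMI counts per gene and barcode, made with Cell Ranger 5.0.1 on mm10 per the submitters' processing notes. Genes were matched by identifier, and those in all 4 libraries were kept (99.0% to 99.8% of UMIs). Barcodes with fewer than 500 genes or 1000 UMIs, or with 15% or more mitochondrial UMIs, were left out, which removed 27, 179, 316 and 1640 barcodes. Scrublet calls were removed (0, 1, 85 and 92). It made almost no calls on the day 0 and day 7 libraries of Prox1 eGFP, so removal of the highest scores was added. Calls were 0.0%, 0.021%, 1.33% and 1.30% of barcodes past the filter. At 0.8% per 1000 cells, 0.552%, 3.90%, 5.11% and 5.66% were expected. Doublets can therefore remain in each library. Leiden clusters (scanpy 1.11.5, leidenalg 0.10.2, 2000 variable genes, 30 components, 15 neighbours, resolution 1.0, no integration) were named from markers. Libraries shared 1 to 10 barcodes per pair.

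UMIs were summed per class and divided by the class total (CPM). A ratio used genes with at least 10 UMIs in both groups together, and at least 2-fold was called higher or lower. For cells with against without an Acan or Sox9 UMI, genes instead needed at least 30 UMIs in the cells with it. Intervals were exact (Poisson, conditional binomial, Clopper-Pearson). UMIs were thinned to 2000 or 5000 per cell for shares. TMM came from edgeR 4.0.16 and positions from GENCODE M21.

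The members and lists were chosen with earlier results of these data known. Named genes were all 10 members, up to 4 of the 44 wider genes per comparison with the largest change, the 5 most alike and up to 8 higher with a member. Leaving out the 2 barcodes was chosen after seeing the data, as were single barcodes and the genes named in them.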

Additional observations from a re-analysis of the deposited data

How the results depend on the processing

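No paired analysis was possible because each group had 1 library, and for the same reason no replicate could be left out. Of 114 alternative values of the main results, 89 stayed close to the reported value, 22 moved and 3 reversed. Of 140 ratios of single genes, 117 stayed close, 18 moved and 5 reversed.

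Values here are log2 ratios unless given as percent or genes. Sox9 in muscle progenitor-like cells (-1.02) became -0.80 under TMM scaling. For tenocyte-like over fibroblast-like cells of Vegfc CRE, Acan (1.75) became 3.83 at resolution 0.5, 1.46 at resolution 2.0, 1.88 under the stricter filter, 1.91 with doublet calls kept, 2.84 with gated classes and 1.83 under TMM, and reversed to -1.48 with the cartilage genes kept among the variable genes. Sox9 (-0.16) became -0.27 at resolution 2.0, -0.32 with doublet calls kept and -6.62 with the cartilage genes kept, and reversed to 1.92 at resolution 0.5 and 0.80 with gated classes. The number of tenocyte-like cells ran from 74 to 1185 over these settings. With the cartilage genes kept, an unnamed cluster of 593 cells over all libraries, whose best class was tenocyte, was outside both classes. At resolution 0.5 the tenocyte-like class of Vegfc CRE held 1185 cells and the fibroblast-like class 720, against 458 and 1447 in the main clustering.

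Without the 2 highest barcodes of each library, Acan in Vegfc CRE over day 21 stromal cells (0.91) became 1.48, and 5 genes reversed, to 0.13 for Col2a1, 2.65 for Col9a1, 0.55 for Hapln1, 0.17 for Matn3 and 2.29 for Cnmd. Wider genes higher in Vegfc CRE went from 7 to 11. Those barcodes were chosen by the matrix genes and held far more UMIs of them at day 21. Wider genes lower at day 21 in muscle progenitor-like cells went from 5 to 8 with at least 1 UMI and to 3 under TMM.

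The share of Acan cells with Sox9 in Vegfc CRE (43.4%) was 22.1% at 2000 UMIs and 75.4% without thinning, and that of cells without Acan (19.1%) was 11.4% and 38.1%, or 16.3% with gated classes. At day 21 the shares of 28.9% and 15.6% became 63.1% and 27.9% without thinning, and the second 8.75% at 2000 UMIs. The share was higher with Acan under each of these settings. The cause of the other changes was not tested.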
